A study of Mus musculus with 16 samples.

Results

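Among 15219 H3K4me2 peaks of vehicle-treated CD8+ T cells, 2267 lay far from every transcription start site (TSS) and carried no H3K4me3 in either treatment. These 2267 distal regions made up 14.9% of the list (95% interval 14.3 to 15.5). They were chosen by the Veh H3K4me2 list and by both H3K4me3 lists: a region overlapped no H3K4me3 peak of either treatment by 1 bp or more, and its edge was more than 2.5 kb from all 31603 distinct TSSs of curated RefSeq transcripts in mm10. The other 12952 H3K4me2 peaks lay near a TSS or carried H3K4me3: 9139 were near a TSS with H3K4me3, 2962 were distal with H3K4me3 and 851 were near a TSS without it. A further 18743 distal Veh H3K4me1 peaks had neither H3K4me3 nor H3K4me2 in either treatment, and were used as the nearest like set. That set was thus chosen by the GSK H3K4me2 list as well, and 243 more peaks had H3K4me2 in GSK only. Since presence of Veh H3K4me2, absence of H3K4me3 and distance selected the regions, these are description and support nothing below.

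The cells were CD8+ T cells from the spleens of OT1 mice, which carry a transgenic T cell receptor (TCR) for an ovalbumin peptide. Both groups went through 48 h of activation by antibodies to CD3 and CD28 in the presence of IL-2, and then 3 days of growth in IL-2. The groups differed in the agent present during both steps, which was 0.5 µM GSK2879552 (GSK), an irreversible inhibitor of the demethylase LSD1, or the vehicle (Veh). ChIP-seq against 4 histone marks (H3K4me1, H3K4me2, H3K4me3, H3K27ac), LSD1 and RNA polymerase II gave 12 peak lists, 1 per antibody and treatment. The 4 input samples of the 16 were not analysed here. The cells were cultured, share a single receptor specificity, and the age and number of the mice behind a library are not given in the sources used here. With 1 library per antibody and treatment there is no replicate error, so no test was made. Each share is given with a Wilson 95% interval and each difference of shares with a Newcombe 95% interval. These cover counting error only, and neighbouring regions are not independent.

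Nucleosomes at regulatory DNA carry methyl groups on lysine 4 of histone H3. Trimethylation (H3K4me3) marks active promoters, monomethylation (H3K4me1) marks enhancers, and dimethylation (H3K4me2) is found at both, so a distal H3K4me2 region without H3K4me3 has the usual marking of an enhancer. Acetylation of lysine 27 (H3K27ac) and RNA polymerase II (Pol II) accompany active enhancers, while H3K4me1 alone is common at primed or inactive ones. LSD1 (Kdm1a) removes mono- and dimethyl groups from H3K4 and works within the CoREST repressor complex. In CD8+ T cells, factors of the RUNX, ETS and AP-1 families bind many distal elements. The labelled cell type was checked at promoters, where H3K4me3 lay at 6 of 6 CD8+ T cell marker genes in both treatments, at 2 of 6 B cell markers (Cd79b and Ebf1), at 1 of 6 myeloid markers (Cd14) and at 1 of 3 CD4 T cell markers (Zbtb7b).

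The sequence at the LSD1 summit of 8 of these regions is shown first, because LSD1 at the distal regions is what the results turn on. A summit need not lie inside the H3K4me2 peak that its LSD1 peak overlaps: the Gm32031 run lies wholly and the Tcf7 run partly inside the region, and the other 6 runs are flanking DNA, 70 to 272 bp from the region's edge. They are the regions with the strongest Veh LSD1 peak that had no GSK LSD1 peak (Mex3a, Src, Smarca2), the strongest that kept one outside the Mavs exon (Gm32031), and regions nearest to genes of T cell identity or with many such regions (Runx1, Klf2, Tcf7, Pmepa1). Each run is 201 bases of the plus strand of GRCm38.p6 (mm10), centred on the authors' Veh LSD1 summit. Capitals mark the letters TGTGGT (RUNX), CAGGAAG (ETS) and TGANTCA (AP-1) on either strand, so a RUNX match of the minus strand reads ACCACA here.
Runx1, chr16:92654002-92654202: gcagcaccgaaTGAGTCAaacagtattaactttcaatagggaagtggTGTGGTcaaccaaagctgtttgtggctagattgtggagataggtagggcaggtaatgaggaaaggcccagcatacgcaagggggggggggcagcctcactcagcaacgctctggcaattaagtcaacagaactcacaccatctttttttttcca
Mex3a, chr3:88521848-88522048: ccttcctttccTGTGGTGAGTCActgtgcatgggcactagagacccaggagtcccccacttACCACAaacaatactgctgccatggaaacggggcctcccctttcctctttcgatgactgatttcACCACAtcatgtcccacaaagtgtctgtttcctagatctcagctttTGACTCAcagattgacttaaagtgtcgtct
Smarca2, chr19:26646206-26646406: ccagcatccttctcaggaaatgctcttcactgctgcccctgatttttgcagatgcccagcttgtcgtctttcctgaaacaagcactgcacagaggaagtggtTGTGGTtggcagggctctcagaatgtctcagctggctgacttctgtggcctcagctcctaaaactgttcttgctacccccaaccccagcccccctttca
Src, chr2:157447353-157447553: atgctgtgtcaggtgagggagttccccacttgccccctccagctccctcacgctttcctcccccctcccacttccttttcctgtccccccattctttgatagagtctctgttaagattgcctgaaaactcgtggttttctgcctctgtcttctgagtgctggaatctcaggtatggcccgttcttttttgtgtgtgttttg
Gm32031, chr7:47022483-47022683: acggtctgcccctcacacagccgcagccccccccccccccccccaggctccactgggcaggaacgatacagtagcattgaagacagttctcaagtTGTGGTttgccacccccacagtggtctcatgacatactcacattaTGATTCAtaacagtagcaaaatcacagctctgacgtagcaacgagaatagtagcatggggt
Klf2, chr8:72354396-72354596: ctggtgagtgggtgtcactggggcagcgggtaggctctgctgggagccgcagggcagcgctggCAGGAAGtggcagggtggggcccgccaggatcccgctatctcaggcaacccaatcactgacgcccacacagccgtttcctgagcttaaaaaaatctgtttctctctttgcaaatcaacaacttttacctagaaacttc
Tcf7, chr11:52314105-52314305: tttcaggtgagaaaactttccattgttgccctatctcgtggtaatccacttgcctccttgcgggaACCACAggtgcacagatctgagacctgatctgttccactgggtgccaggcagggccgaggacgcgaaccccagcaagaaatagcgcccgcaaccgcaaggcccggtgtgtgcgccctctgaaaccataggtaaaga
Pmepa1, chr2:173263621-173263821: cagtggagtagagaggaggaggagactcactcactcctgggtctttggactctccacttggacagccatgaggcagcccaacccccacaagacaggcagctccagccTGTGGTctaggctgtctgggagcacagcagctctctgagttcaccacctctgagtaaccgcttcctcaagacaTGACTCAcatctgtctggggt

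The RUNX letters were in 6 of these 8 runs and the AP-1 letters in 4. Runs were also taken at Sp2 and, at its GSK LSD1 summit, at the +23 enhancer of Runx1. Neither held RUNX, ETS or AP-1 letters, and they are not shown. The runs were picked and do not measure how common a motif is, which is given below over all Veh LSD1 summits of the regions. At Smarca2 the RUNX match began 2 bp after the summit, at Pmepa1 7 bp after it and at Gm32031 5 bp before it. Mex3a held 3 RUNX and 2 AP-1 matches, of which the RUNX match that began 89 bp before the summit and the AP-1 match that began 84 bp before it share a letter. The Klf2 run held an ETS match and neither of the other motifs, and the Src run held none of the 3. A match is a description of the letters and not a binding site.

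LSD1, the target of the inhibitor, lay over 751 of the 2267 regions in Veh cells (33.1%, 31.2 to 35.1) and over 611 in GSK cells (26.95%, 25.2 to 28.8). Over all Veh H3K4me2 peaks the corresponding shares were 49.1% and 54.1%, so the distal regions were below that background in both treatments. In the other H3K4me2 peaks as a whole the share was 51.9% in Veh and 58.9% in GSK, the opposite order. By class, the order was opposite near a TSS with H3K4me3 (56.7 and 66.8%), while distal peaks with H3K4me3 had 47.3% in Veh and 46.3% in GSK. Near a TSS without H3K4me3 the shares were 15.4 and 17.6%, with overlapping intervals. The distal regions were 18.7 points below the other H3K4me2 peaks in Veh (interval of the difference 16.6 to 20.8) and 31.9 points below in GSK (29.9 to 33.9). They were 16.3 points above the distal H3K4me1 peaks without H3K4me2 in both (14.4 to 18.4 and 14.4 to 18.2), where LSD1 lay over 16.8% and 10.7%. With the 243 peaks that had GSK H3K4me2 put back into that set, the differences were 16.1 and 16.0 points. The 2 LSD1 lists were of like length, 21252 and 19919 peaks. When every pair of lists was cut to the same number of peaks, the H3K4me2 lists were cut as well, which left 1050 distal regions. Over these the Veh and GSK shares were 35.7% and 36.0%, so the order of the treatments was not seen there. Since the regions changed with the lists, the part of LSD1 list length alone was not tested.

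**Figure D1:**
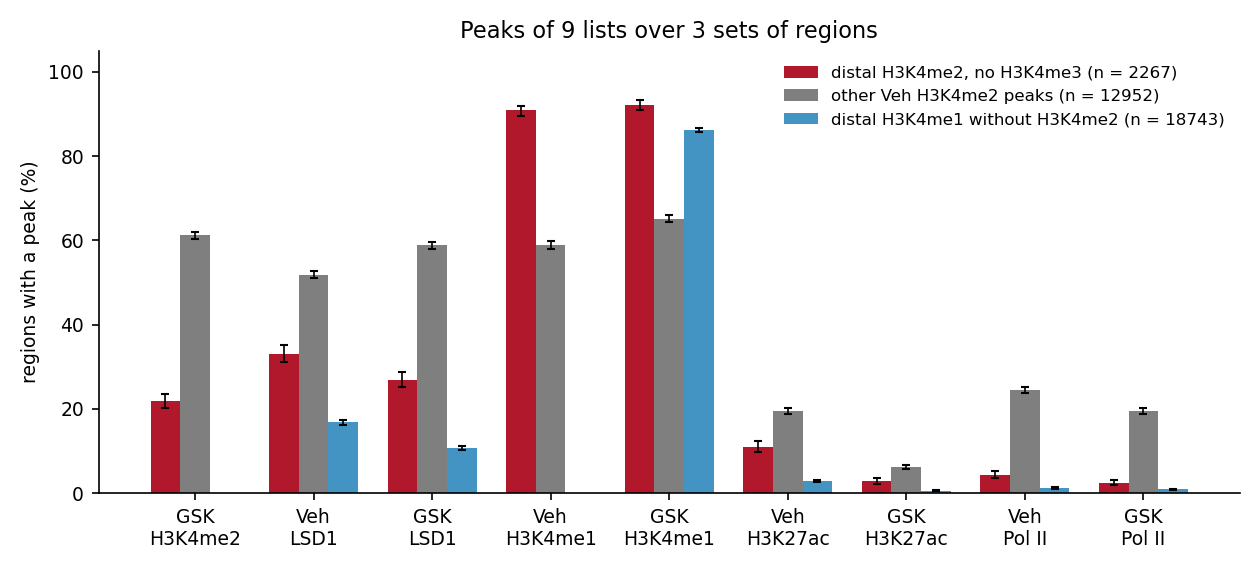
Percent of regions overlapped by a peak of each list (y axis) for the 2267 distal H3K4me2 regions without H3K4me3 (red), the 12952 other Veh H3K4me2 peaks (grey) and the 18743 distal H3K4me1 peaks without H3K4me2 (blue). Error bars are Wilson 95% intervals, and no blue bar is drawn for GSK H3K4me2 or Veh H3K4me1, since absence of the former and presence of the latter selected that set. Red bars are above grey ones for H3K4me1 and below them for the other lists drawn.

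Of the 751 regions with a Veh LSD1 peak, 401 also had a GSK LSD1 peak (53.4%, 49.8 to 56.9), against 80.0% of all Veh H3K4me2 peaks with Veh LSD1. In the other H3K4me2 peaks the share was 82.9%, a difference of 29.5 points (25.9 to 33.2). The distal peaks with H3K4me3 kept 67.7%, the 131 peaks near a TSS without H3K4me3 kept 52.7%, and the distal H3K4me1 peaks without H3K4me2 kept 37.8%. The distal H3K4me2 regions thus lay 14.3 points below distal peaks with H3K4me3 (9.94 to 18.6) and 15.6 points above the H3K4me1 set (11.7 to 19.6), or 15.0 points with the 243 peaks put back. Their distance from peaks near a TSS without H3K4me3 was 0.724 points, with an interval from -8.36 to 9.94. A further 210 regions had LSD1 in the GSK list only, 350 in the Veh list only, and 1306 (57.6%) in neither.

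Strong LSD1 peaks were more often found again. When the 751 regions were divided into 5 equal classes by the −log10 p of their Veh LSD1 peak, 32.7, 36.7, 55.3, 64.7 and 77.5% had a GSK LSD1 peak from the weakest to the strongest class. In other H3K4me2 peaks within the same limits the shares were 68.0, 79.0, 85.8, 90.9 and 96.5%. The distal regions were lower in each of the 5 classes. Their Veh LSD1 −log10 p had a median of 8.11, against 7.61 in the other H3K4me2 peaks, and in GSK it was 7.03 against 8.62.

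Among the 401 regions with LSD1 in both lists, the peak ranked lower in the GSK list than in the Veh list in 258 (64.3%, 59.5 to 68.9), with a median change of -6.79 percentile points. Other H3K4me2 peaks with LSD1 in both moved the opposite way, with 2129 of 5570 (38.2%) ranked lower and a median of 4.90 points. The fold enrichment itself was lower in GSK in 218 of the 401 (54.4%, 49.5 to 59.2). A percentile rank moves with the number of weak peaks in its list and with the other peaks above it, so a lower rank need not be a lower signal.

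**Figure D2:**
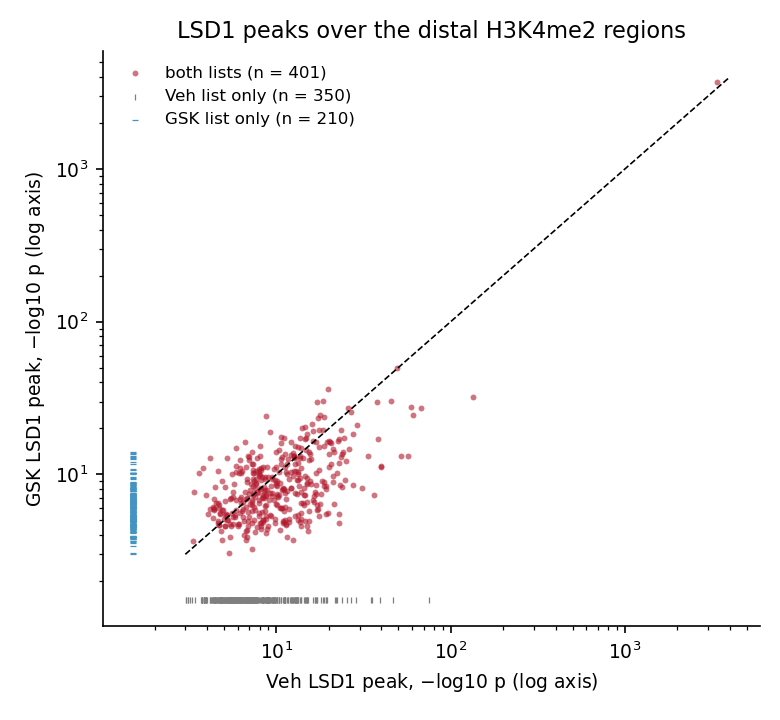
Veh LSD1 −log10 p (x axis, log scale) against GSK LSD1 −log10 p (y axis, log scale) for the 401 distal regions with a peak in both lists, with the dashed line of equal values. Grey ticks along the bottom are the 350 regions with a Veh peak only and blue ticks at the left the 210 with a GSK peak only, placed off the scale. Most points lie near or below the line, and the point at the far upper right is the Mavs exon.

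Single regions show the range of these LSD1 values, given as −log10 p. The region nearest to Mex3a, an RNA-binding protein gene, at chr3:88522118-88522415, had 75.3 in Veh and no GSK peak. It lay between genes, 9.53 kb upstream of the TSS, and carried no H3K4me1 in either list. An intron of Src, the tyrosine kinase gene, at chr2:157447825-157448426, had 46.8 in Veh and none in GSK. An intron of Smarca2, which encodes a SWI/SNF ATPase, at chr19:26646518-26647068, had 39.3 in Veh and none in GSK. Both intronic regions carried H3K4me1 in Veh and GSK cells, with 12.2 and 11.3 at Src and 7.48 and 8.05 at Smarca2. None of the 3 had an H3K4me2 peak in GSK cells.

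Other strong LSD1 peaks were listed in both treatments. The region 13.8 kb downstream of the Gm32031 TSS, at chr7:47022371-47023185, had 134 in Veh and 32.1 in GSK. The region 13.2 kb upstream of Sp2, a zinc finger transcription factor gene, at chr11:96996195-96997427, had 67.5 and 27.2 and kept its H3K4me2 peak (8.68 and 7.40). An exon of Mavs, an adaptor of antiviral RNA sensing, at chr2:131240142-131240754, stood apart from every other region: LSD1 −log10 p was 3387 in Veh and 3714 in GSK, H3K4me2 519 and 416, and H3K4me1 538 and 779, with no H3K27ac or Pol II peak. These values at Mavs were far above those of the next region in all 3 antibodies. What lies behind them was not tested.

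H3K4me2 itself was found again in GSK cells at 494 of the 2267 regions (21.8%, 20.1 to 23.5), against 55.3% of all Veh H3K4me2 peaks. In the other H3K4me2 peaks it was 61.2%, a difference of 39.4 points (37.5 to 41.2). By class it was 66.9% near a TSS with H3K4me3, 52.8% in distal peaks with H3K4me3, and 28.4% near a TSS without H3K4me3. The distal regions were thus 31.0 points below distal peaks with H3K4me3 (28.5 to 33.5) and 6.65 points below peaks near a TSS without it (3.24 to 10.2). The GSK H3K4me2 list was shorter, with 9437 peaks against 15219. Fewer unique read pairs are listed for its library, so a region that lost the mark cannot be told apart from a region that fell below the limit of that list. When both lists were cut to the same number of peaks, 36.2% of the regions then chosen were found again.

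The distal regions had been chosen with no regard to H3K4me2 strength, and differed from the rest in it. Their Veh fold enrichment had a median of 4.60 (quartiles 4.18 and 5.08), like the 4.63 of the other peaks, but their −log10 p had a median of 7.32 against 8.65, and their width 440 bp against 729 bp. Within 5 classes of Veh fold over all H3K4me2 peaks, 15.6, 19.5, 19.3, 23.2 and 36.2% of the distal regions had a GSK peak, against 36.9, 51.9, 61.9, 71.6 and 83.1% of the others. Within classes of −log10 p the shares were 10.8, 18.2, 26.5, 37.8 and 50.6%, against 28.6, 42.4, 60.3, 75.4 and 89.5%. Within classes of width they were 13.3, 26.3, 27.1, 28.9 and 36.7%, against 29.9, 55.3, 68.1, 70.4 and 73.5%. The distal regions were lower in every class of each measure.

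**Figure D3:**
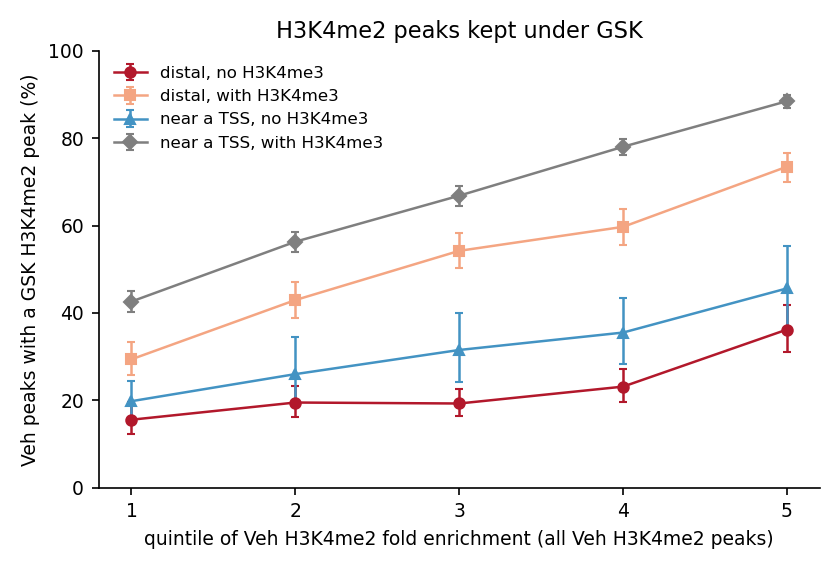
Percent of Veh H3K4me2 peaks that overlap a GSK H3K4me2 peak (y axis) in 5 equal classes of Veh fold enrichment over all 15219 peaks (x axis, 1 lowest), for the distal regions without H3K4me3 and the 3 other classes of peak. Points are shares and bars Wilson 95% intervals. The distal regions without H3K4me3 run from 15.6 to 36.2% and are the lowest line in all 5 classes.

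The comparison was also run from the GSK side. By the same rule, 818 of the 9437 GSK H3K4me2 peaks were distal without H3K4me3 (8.67%), and 533 of them (65.2%, 61.8 to 68.3) overlapped a Veh H3K4me2 peak. Of the other 8619 GSK peaks, 91.5% (90.9 to 92.1) did. From either side, distal peaks without H3K4me3 were found less often in the other list than the rest were. The remaining 285 GSK peaks had no Veh H3K4me2 peak, and 258 of them (90.5%) carried GSK H3K4me1 and 65 (22.8%) GSK LSD1. They included peaks nearest to Gfi1, an LSD1-recruiting repressor gene, and to Foxo1, Irf4 and Nfatc2, none of which had an LSD1 peak in either list. The peak nearest to Zeb1 had LSD1 in GSK only.

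The strength of the 494 regions found again shifted little on the fold scale, where GSK minus Veh had a median of 0.087. These regions had a higher Veh −log10 p than the 1773 that were not found again (median 8.41 against 7.12) and were wider (534 against 417 bp). They were also somewhat richer in CpG, with an observed to expected ratio of 0.255 against 0.218. Distance made little difference, since the share was between 20.1 and 22.8% in each of 5 distance classes from 2.5 kb to over 100 kb.

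The strongest regions of either kind lay in or near genes of varied function. Among those found again, an intron of Tnrc6b, a gene of microRNA silencing, at chr15:80814585-80815740, had an H3K4me2 −log10 p of 19.2 in Veh and 9.17 in GSK. An intron of Ikzf1, which encodes the lymphoid factor Ikaros, at chr11:11741154-11741543, had 18.6 and 12.6, with an LSD1 peak in GSK only (8.82). Upstream of Cdc42ep1, at chr15:78835450-78836153, the values were 18.5 and 13.4. An intron of Stim1 nearest to the Rrm1 TSS, at chr7:102425964-102426663, had 18.5 and 12.0. The strongest without a GSK peak were nearest to Akap7 (16.8), Dhrs7 (16.8), Fbxo27 (16.7), Rn4.5s (16.3) and Fam102a (15.8), all between genes. Of these 5, Dhrs7 had LSD1 in Veh only (9.77), Akap7 in GSK only (5.28) and Rn4.5s in both (28.8 and 21.0). The regions near Fbxo27 and Fam102a had no LSD1 peak in either list.

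LSD1 removes the mark that chose these regions, so the share of H3K4me2 found again was compared by LSD1. It was 27.03% in the 751 regions with Veh LSD1 (203 regions) and 19.2% in the 1516 without (291 regions), a difference of 7.84 points (4.15 to 11.6). The share followed the GSK rather than the Veh LSD1 list: 35.7% of the 401 regions with LSD1 in both and 31.9% of the 210 with GSK LSD1 only, against 17.1% of the 350 with Veh LSD1 only and 17.2% of the 1306 with neither. With GSK LSD1 the share was 34.4% and without it 17.1%, a difference of 17.2 points (13.1 to 21.4). The difference by GSK LSD1 was not recomputed within classes of width or strength or in windows of equal size, as was that by Veh LSD1 below. Region size moved with LSD1, since Veh LSD1 lay over 20.7% of the narrowest and 53.3% of the widest of 5 classes of width. Laid over windows of 1 kb at the centre of every region, the difference by Veh LSD1 was 4.42 points (0.928 to 7.97). Within the classes of width, from narrow to wide, the regions with Veh LSD1 had 15.1, 17.2, 30.5, 26.0 and 35.1% and those without had 10.9, 13.2, 24.5, 26.1 and 25.5%. The intervals of the shares overlapped in every class, but no interval was computed for the differences within classes. Overlap therefore does not show that no difference remained, and the gap was largest in the widest class. Within 5 classes of Veh H3K4me2 −log10 p the regions with Veh LSD1 had 9.49, 16.5, 19.6, 31.5 and 54.1%, and those without had 9.15, 13.1, 17.7, 21.5 and 35.7%. The difference was therefore small in the weakest classes and larger in the 2 strongest. With lists of equal length, the difference by Veh LSD1 over the 1050 regions then chosen was 14.2 points (8.09 to 20.3).

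H3K4me1 lay over almost all of the regions. It was present at 2059 in Veh cells (90.8%, 89.6 to 91.9) and at 2090 in GSK cells (92.2%, 91.0 to 93.2), against 63.7% and 69.2% of all Veh H3K4me2 peaks. The distal regions exceeded the other H3K4me2 peaks by 31.9 points in Veh (30.4 to 33.3) and by 27.1 in GSK (25.6 to 28.4). Both lists marked 1997 of them (88.1%), the Veh list alone 62, the GSK list alone 93 and neither list 115. The mark was also broader than the region, with 1642 lying wholly under a Veh and 1714 wholly under a GSK H3K4me1 peak.

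For the 1997 regions with both peaks, GSK minus Veh had a median of -0.149 in H3K4me1 fold (quartiles -0.405 and 0.0926) and of -0.03 percentile points in rank (quartiles -6.87 and 6.84). By LSD1 the median change in rank was 0.04 with Veh LSD1 only, -0.89 with both, 0.11 with GSK LSD1 only and 0.14 with none. Over these regions 97.0% of Veh H3K4me1 and 53.4% of Veh LSD1 was found again. These shares are not like for like, since the H3K4me1 lists hold broad peaks at a stricter limit and the LSD1 lists narrow ones. The GSK LSD1 list was also shorter than its Veh list. All distal H3K4me1 peaks without H3K4me2 have Veh H3K4me1 by choice, and 86.1% of them had GSK H3K4me1. The GSK H3K4me1 list was the longer of the pair, with 40272 peaks against 34387, and the ranks move with list length.

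H3K27ac was rare. It lay over 248 regions in Veh cells (10.9%, 9.72 to 12.3) and 64 in GSK cells (2.82%, 2.22 to 3.59), against 18.2% and 5.72% of all Veh H3K4me2 peaks. The distal H3K4me1 peaks without H3K4me2 were lower still, at 2.90% and 0.587%, and the difference was 8.04 points in Veh (6.80 to 9.41) and 2.24 in GSK (1.62 to 3.01), or 7.94 and 2.23 points with the 243 peaks put back. Both treatments had it at 59 regions, Veh alone at 189, GSK alone at 5 and neither at 2014. The GSK H3K27ac list held 2751 peaks and the Veh list 7410. Far fewer unique read pairs are listed for the GSK library. With lists of equal length, which left 1050 regions, the shares were 2.86% in Veh and 3.05% in GSK, so the higher Veh share cannot be told apart from the longer Veh list.

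Pol II lay over 97 regions in Veh (4.28%, 3.52 to 5.19) and 54 in GSK (2.38%, 1.83 to 3.09), against 21.5% and 16.9% of all Veh H3K4me2 peaks. Both lists had it at 26 regions. Among peaks with a −log10 q of 5 or more, Pol II lay over 7 of the 1092 regions then chosen in Veh (0.641%, 0.311 to 1.32). In GSK it lay over 11 (1.01%, 0.563 to 1.79), so the higher Veh share was not seen, and the intervals overlap. In each other alternative the Veh share stayed the higher, with 52 and 37 of 1050 regions for lists of equal length. More unique read pairs are listed for the GSK than for the Veh Pol II library. Acetylation, Pol II and LSD1 occurred together. Of the 248 regions with Veh H3K27ac, 47.2% had Veh LSD1 and 19.8% Veh Pol II, against 31.4% and 2.38% of the 2019 without. These shares were not computed over the other H3K4me2 peaks. Width was not held equal, and Veh LSD1 lay over 20.7% of the narrowest and 53.3% of the widest class of the distal regions. H3K4me2 was found again at 19.8% of the regions with Veh H3K27ac and 22.0% of those without, a difference of -2.28 points (-7.13 to 3.40).

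Combining the antibodies, 1211 regions (53.4%) in Veh cells carried H3K4me1 and no peak of LSD1, H3K27ac or Pol II, and 578 (25.5%) carried H3K4me1 with LSD1. In GSK cells these states held 1470 (64.8%) and 532 (23.5%). The state of H3K4me1 alone rests on the absence of LSD1, H3K27ac and Pol II peaks. Each of those lists was shorter in GSK, with 2751 against 7410 peaks for H3K27ac. The part of list length in the higher GSK share was not tested. The states were not counted over the other H3K4me2 peaks. No peak of H3K4me1, LSD1, H3K27ac or Pol II was found at 153 regions in Veh (6.75%) and at 77 in either treatment. All 4 were present in both treatments at 6 regions.

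Of the 59 regions with H3K27ac and the 26 with Pol II in both treatments, the strongest are named here. H3K27ac −log10 p was 12.0 in Veh and 14.8 in GSK in the region nearest to Gm31579, 10.2 and 12.0 near A430046D13Rik, 25.7 and 11.5 in an intron of Rexo5, and 12.0 and 10.9 in the region 121 kb downstream of Chsy1. The region 21.9 kb upstream of Pisd-ps1, at chr11:3101738-3102103, had 18.5 and 13.5 for H3K27ac and 43.3 and 49.5 for Pol II. Kif2c, a mitotic kinesin gene, was nearest to the region with the strongest Pol II peaks (106 and 123), which lay 90 bp from an H3K4me3 peak. Another region, in an intron of Pisd-ps1, had Pol II values of 18.7 and 19.1. The regions near Kif2c and upstream of Pisd-ps1 consist mostly of masked repeats, and the part of repeats in these values was not tested. Over all results, leaving out the 206 regions with over 50% of masked bases moved no share by more than its interval.

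The LSD1 summits lay within or beside the regions. Of the 751 Veh summits, 463 were inside the H3K4me2 peak and the median distance from its centre was 195 bp. In GSK cells 420 of 611 were inside, with a median of 173 bp. In windows of 300 bp at the Veh summits, the RUNX letters were found in 386 of 751 (51.4%, 47.8 to 55.0), the ETS letters in 34.0% and the AP-1 letters in 20.5%. In windows of the same length at all curated TSSs the shares were 14.8, 13.0 and 6.46%. At Veh LSD1 summits of the distal H3K4me1 peaks without H3K4me2, the ETS letters were in 31.1% and the AP-1 letters in 24.6%. These motifs were thus not particular to the distal H3K4me2 regions. At least 1 of the 3 motifs was present at 561 of the 751 summits in those regions (74.7%).

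The RUNX share followed the class of region. It was 52.2% at LSD1 summits of distal H3K4me1 peaks without H3K4me2, 32.7% in distal H3K4me2 peaks with H3K4me3, and 12.4% near a TSS with H3K4me3. The GC box (GGGCGG) had the opposite order, with 12.6% in the distal regions, 60.5% near a TSS with H3K4me3 and 44.3% at all TSSs. Base composition moved with the class as well: the windows had a median GC content of 51.3% in the distal regions and 66.7% near a TSS, and its part in the motif shares was not tested. Within the distal regions the RUNX share was 50.9% where GSK LSD1 was also present and 52.0% where it was not, and the intervals of these shares overlap. At the 210 GSK-only summits it was 30.5%, and at the centres of the 1306 regions with no LSD1 it was 24.6%. Windows at centres differ from those at summits in placement as well as in LSD1. With all windows at region centres, the RUNX letters were in 290 of the 751 regions with Veh LSD1 (38.6%, 35.2 to 42.1). Without Veh LSD1 they were in 379 of 1516 (interval 22.9 to 27.2%).

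**Figure D4:**
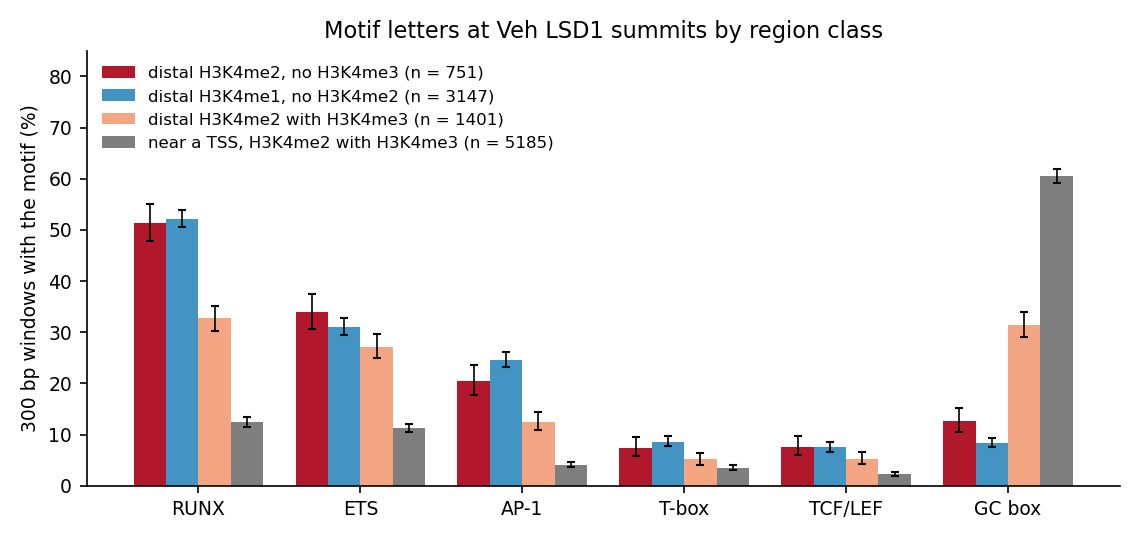
Percent of 300 bp windows at Veh LSD1 summits with the letters of each motif (y axis), by class of region (colour), with Wilson 95% intervals. RUNX is at 51.4% in the distal H3K4me2 regions without H3K4me3 and 12.4% near a TSS with H3K4me3, while the GC box is at 12.6% and 60.5%.

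The other motifs searched were closer to the TSS background. Over the 751 summits, T-box letters (GGTGTGA) were present in 7.46% against 3.55% of TSS windows, TCF/LEF letters (CTTTGAA) in 7.59% against 3.81%, and the IRF letters in 5.59% against 2.92%. STAT letters (TTCNNNGAA) were present in 11.3% against 7.28%, GFI1 letters (AATCAC) in 10.9% against 8.75%, and the ZEB and E protein letters (CAGGTG) in 24.2% against 21.4%. At Veh LSD1 summits of the distal H3K4me1 peaks without H3K4me2, T-box was at 8.61%, TCF/LEF at 7.50% and IRF at 3.84%. There STAT was at 14.4%, GFI1 at 13.6% and the ZEB and E protein letters at 24.5%. All motifs were counted on both strands. Taken over 300 bp at the centre of all 2267 regions, GC content had a median of 50.7% against 59.0% in the other H3K4me2 peaks, and the CpG ratio 0.228 against 0.600.

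By position, 1060 regions (46.8%) lay between genes, 1079 (47.6%) in introns and 128 (5.65%) over exons, whereas 28.6% of the other H3K4me2 peaks were over exons and 25.5% between genes. The median distance to a TSS was 20.2 kb. The rule's limit was 2.5 kb, and the 3 regions just inside it were at 2513, 2527 and 2527 bp (A330074K22Rik, Nop53 and Irf7), while the 3 peaks without H3K4me3 just outside it were at 2493, 2491 and 2485 bp (Brd2, Usp25 and Vav1). Chromosome 11 held 191 regions (1.56 per Mb) and chromosome X 15 (0.0877 per Mb). An H3K4me3 peak lay within 1 kb of 115 regions (5.07%). Most regions were isolated: 2072 had no other within 12.5 kb, and 4 groups of 3 or more were found, at Ccr7 (4 regions over 25.6 kb), Rab44, Runx3 and Pip4k2a. RefSeq annotates an enhancer over a few of them, among them the +23 enhancer of Runx1 at chr16:92801199-92802084.

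The regions were nearest to 1878 of 26180 genes, which is 7.17% of all genes. Genes with a Veh H3K4me3 peak at the promoter were nearest to a region more often (9.91% of 13084) than genes without (4.44% of 13096). Of the 2267 regions, 70.1% had a nearest gene with a Veh H3K4me3 promoter peak, and 39.7% a nearest gene with a Veh Pol II promoter peak. Over all 26180 genes, each counted once, the shares were 50.0% and 29.3%. The promoter peak need not lie at the TSS nearest to the region. The nearest gene need not be the gene a region acts on. The gene lists below were used as descriptions, with the share of all genes beside them.

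**Figure D5:**
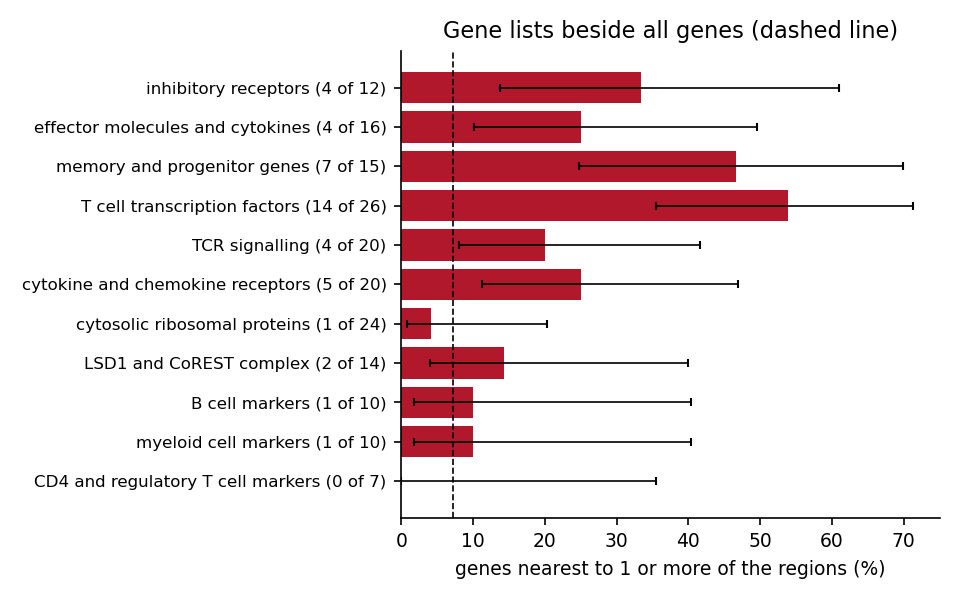
Percent of the genes of each list that are nearest to at least 1 distal H3K4me2 region (x axis), with Wilson 95% intervals and the counts in the labels. The dashed line is the 7.17% of all genes. T cell transcription factors (14 of 26) and memory and progenitor genes (7 of 15) have the highest bars, and CD4 and regulatory T cell markers have none.

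T cell transcription factors stood highest, with 14 of 26 genes nearest to a region, 22 regions in all. In these 22, H3K4me2 was found again in 3, and LSD1 was present in 7 in Veh and 4 in GSK. Over all 2267 regions the shares were 21.8% for H3K4me2 found again, 33.1% for Veh LSD1 and 26.95% for GSK LSD1, and the counts in each list are too small to set against these shares. Runx1, a factor of T cell development, had 3 regions in its introns. The region at chr16:92653558-92653921 had LSD1 at 35.6 in Veh and no GSK peak, with H3K4me2 at 13.7 in Veh only and H3K4me1 at 18.4 and 19.4. Its +23 enhancer had LSD1 at 10.6 in Veh and 16.0 in GSK. Runx3, which drives the CD8 lineage, had 4 regions with no LSD1 in either list and none with GSK H3K4me2, of which a region 16.2 kb upstream had H3K27ac in Veh only (11.2). Runx2, not on the list but among the genes with most regions, had 4 intronic regions, all with Veh LSD1 (12.9, 14.5, 3.26 and 7.22) and only the first with GSK LSD1 (5.33). The regions found again for H3K4me2 were those of Ikzf1, of Id2 (7.20 and 6.61), an inhibitor of E proteins, and of Nfatc2 (7.14 and 9.40), a factor activated by calcium signalling. Tox and Nr4a3, which encode factors of the exhaustion programme, each had 2 regions, of which 1 each had LSD1 in Veh only (5.80 and 7.15).

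Memory and progenitor genes were nearest to 13 regions at 7 of 15 genes, with LSD1 at 6 in Veh and 8 in GSK and H3K4me2 found again at 2, beside the same shares over all regions. Ccr7, the receptor that guides T cells to lymph nodes, had 4 regions, of which that at chr11:99136680-99137010 had LSD1 at 24.2 and 13.9. Klf2, a factor of quiescence and trafficking, had 2 regions with LSD1 in both lists, at 51.6 and 13.2 in an intron of Eps15l1 (chr8:72353610-72354268) and at 22.8 and 11.9 at chr8:72330332-72331692. Tcf7, which encodes the progenitor factor TCF1, had a region 30.9 kb upstream with LSD1 at 26.8 and 25.7 and no H3K4me1. Lef1, its close relative, had a region with 3.77 and 11.1. Bach2 had LSD1 in GSK only (11.7) and kept its H3K4me2 (11.6 and 8.51). LSD1 was thus listed in both treatments at regions of Ccr7, Klf2, Tcf7, Lef1 and Cxcr5.

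Inhibitory receptor genes were nearest to 6 regions at 4 of 12 genes. Ctla4 had 3 regions, of which 2 had Veh LSD1 (6.43 and 7.34) and none had GSK LSD1 or GSK H3K4me2. The region 31.7 kb downstream had H3K27ac in both (16.3 and 6.95), as had that 9.77 kb upstream (7.25 and 7.00). The regions in introns of Entpd1, which encodes the ectonucleotidase CD39, and of Vsir had no LSD1 and kept H3K4me2 (8.55 and 6.74, and 12.0 and 10.1). Effector genes were nearest to 8 regions at 4 of 16 genes, 2 each at Gzmb and Prf1, which encode the cytotoxic proteins granzyme B and perforin, and at Fasl and Ccl5. Of these 8 a single region, near Prf1, had LSD1 (10.4, Veh only), and 2 kept H3K4me2.

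Cytokine and chemokine receptors had 10 regions at 5 of 20 genes. A region 14.9 kb upstream of Il2rb, a chain of the IL-2 receptor, had LSD1 at 18.7 and 8.97 and H3K27ac in Veh only (12.3). A region 8.14 kb downstream of Ccr4 had LSD1 in Veh only (16.7), with H3K27ac (8.53) and Pol II (6.78) also in Veh only. Il21r had 3 regions, with LSD1 at 1 of them in GSK only (12.1). TCR signalling genes had 5 regions at 4 of 20 genes (Rasgrp1, Cd3e, Lcp2 and Plcg1), and genes of the LSD1 complex 3 regions at 2 of 14 (Gse1 and Zmym2). Ribosomal protein genes were nearest to a region in 1 of 24 (Rpl19), B cell markers in 1 of 10 (Vpreb3), myeloid markers in 1 of 10 (Mpo), and CD4 and regulatory T cell markers in 0 of 7.

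By count, the genes with most regions were Atp10a, Clvs1 and Pik3r1 with 5 each, followed by 10 genes with 4. Pik3r1, the regulatory subunit of PI3 kinase, had 2 intronic regions that kept H3K4me2 (13.0 and 8.45, and 6.93 and 7.72). Pmepa1, a feedback inhibitor of TGF-beta signalling, had LSD1 in both lists at 3 of its 4 regions, the strongest at chr2:173263897-173264274 (25.8 and 27.3). Some nearest genes are only neighbours, since 3 of the 4 regions assigned to Macroh2a3 lay in introns of Pvt1 and 2 of the 4 assigned to Scgb1a1 in introns of Ahnak. The receptor loci also held regions, with 11 within 2.5 kb of a receptor gene segment. The strongest, at chr14:52862562-52862884 in the Tcra locus, had H3K4me1 at 61.1 and 69.6 and H3K4me2 at 16.1 and 13.9. The region at chr14:53173485-53173787 had H3K4me1 at 56.7 and 74.2 and H3K4me2 in Veh only (13.1).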

How the data were processed

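ChIP-seq of OT1 CD8+ T cells was analysed from the 12 deposited peak lists. Before deposit, the authors aligned reads to unique positions of mm10 (Bowtie2) and discarded duplicates (Samtools). They ran MACS2 on each library against input, with p-values of 0.001 as the cutoff. To compare signals, the paper also brought libraries to equal read numbers by random draws. Whether the deposited peaks were called on the drawn reads is not clear from its methods. Narrow peaks with summits were deposited for LSD1 and Pol II, and broad peaks for the histone marks. Each peak has a fold value deposited by the authors, a ratio of ChIP signal over background. Beside it the authors deposited −log10 p and −log10 q values and an integer score, of which the score was not used further. The histone lists begin at a −log10 q just above 3. The LSD1 lists begin lower, at 0.787 in Veh and 0.775 in GSK, and the Pol II lists at 0.595 and 0.523. Shares of LSD1 and Pol II thus rest on less strict lists than shares of the histone marks. Depth was not computed, since read counts are not part of a peak list. The length of a list rises with depth, which affects every share of regions with a peak.

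Regions were selected by the stated rule against RefSeq transcripts of GRCm38.p6, whose 21 chromosome lengths match mm10. Peaks overlapped if they shared 1 bp. The distance is from the region's edge to the nearest TSS, and the gene of that TSS is the nearest gene. Named regions were the strongest by −log10 p among those with H3K4me2 kept or not kept (5 each), with LSD1 kept or not kept (3 each), with H3K27ac in both treatments (5) and with Pol II in both (3). Named genes were the 10 with most regions, ties included, and list genes nearest to a region, with examples. The regions named for their LSD1 values or sequence at list genes were picked after their values were seen. The regions and gene lists were chosen with earlier results of these data known. Promoters were 1000 bp to either side of a TSS.

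Python 3.11.15, pandas 2.3.3, NumPy 2.4.6, SciPy 1.17.1 and pysam 0.24.0 were used. The intervals were tested on simulated data. With 1 library per antibody and treatment, groups were set side by side without a test. Tried as alternatives were a larger overlap, a larger TSS distance, all RefSeq TSSs, a stricter −log10 q, lists of equal length and, added after seeing the data, regions without repeats, windows of 1 kb, a distance to H3K4me3, classes of width, and an H3K4me1 set chosen without the GSK H3K4me2 list. Differential tables and the inputs were not used here.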

Additional observations from a re-analysis of the deposited data

How the results depend on the processing

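The 13 main results (the number of regions, the 8 shares with a peak, H3K4me2 and LSD1 found again, and 2 differences) were recomputed under 8 alternatives, 3 of them chosen after seeing the data, and the 2 differences kept their sign in all 8. No share or difference moved beyond its 95% interval with the TSSs of all RefSeq transcripts, without regions over 50% masked, or with regions over 1 kb from every H3K4me3 peak, which left 2023, 2061 and 2152 of the 2267 regions. Peaks with a −log10 q of 5 or more in every list left 1092 regions, with H3K4me2 found again at 20.0%, LSD1 at 18.8% in Veh and 14.5% in GSK, LSD1 found again at 46.8%, H3K4me1 at 83.9 and 86.9%, H3K27ac at 8.24 and 1.10%, Pol II at 0.641 and 1.01%, and a difference from the other peaks in H3K4me2 found again of -32.1 points. Lists of equal length left 1050 regions, with H3K4me2 found again at 36.2%, LSD1 at 35.7 and 36.0%, and LSD1 found again at 66.4%. H3K4me1 was then at 92.6 and 91.6%, H3K27ac in Veh at 2.86%, and Pol II at 4.95% in Veh and 3.52% in GSK. Regions with and without Veh LSD1 then differed by 14.2 points in H3K4me2 found again. An overlap of 25% of the region's width gave LSD1 at 28.7 and 23.7%, H3K4me1 at 88.3 and 89.4%, Pol II at 2.94 and 1.70%, and -37.3 points for H3K4me2 found again against the other peaks. Regions over 5 kb from every TSS had H3K4me1 at 92.1 and 93.4%. Windows of 1 kb at the centre, an added alternative, gave LSD1 at 40.2 and 30.8%, Pol II at 6.09 and 3.53%, and 4.42 points between regions with and without Veh LSD1, against 7.84 in the regions themselves. Over the alternatives, H3K4me2 was found again at 20.0 to 36.2% of the distal regions and 52.0 to 75.1% of the other peaks, and LSD1 at 46.8 to 66.4% and 77.0 to 86.1%. Of these alternatives, lists of equal length removed the higher Veh share of LSD1 and H3K27ac and the higher GSK share of H3K4me1, and the stricter −log10 q removed the higher Veh share of Pol II, there with 7 and 11 regions. No paired analysis was possible because each antibody has 1 library per treatment, and no replicate could be left out for the same reason. List length and depth limit every share.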
